A study of Homo sapiens with 15 samples.

Results

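The genes described here are the 10 that write and erase N6-methyladenosine (m6A) in messenger RNA, taken by symbol and Ensembl ID from a table of 62754 gene IDs, and all 10 were found and passed the filter on low counts. They are the catalytic pair METTL3 and METTL14, the regulatory subunits WTAP, VIRMA, ZC3H13 and CBLL1, the RNA-binding adaptors RBM15 and RBM15B, and the demethylases FTO and ALKBH5. RNA was measured in NCI-H69, an established human small cell lung cancer line that the labels call classic type, in 3 groups of 3 libraries each. The groups were cells given the solvent DMSO, cells given CS2 and cells given FB23-2, both compounds being named as FTO inhibitors in the study's design text. CS2 is a name used in the FTO literature for brequinar, which also blocks dihydroorotate dehydrogenase, the pyrimidine synthesis enzyme. The labels give no dose and no time for either compound, so the compounds are compared as labelled. The labels list 15 samples, of which the 6 of the line H82 were not analysed here.

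m6A is the most common internal mark of messenger RNA. METTL3 transfers a methyl group from S-adenosylmethionine to adenosine, and METTL14 holds the RNA beside it. The other subunits place this pair in the nucleus and on particular stretches of RNA. FTO and ALKBH5 are iron-dependent dioxygenases that use 2-oxoglutarate to remove the mark, and FTO also acts on the related mark m6Am beside the cap. The compounds named here are reported to act on the FTO protein, whereas these libraries report the amount of each transcript and hold no measure of methylation or of enzyme activity.

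Library totals ran from 29916267 to 45022633 counts, so that 3 counts in a library, the limit that a count of 0 allows, correspond to 0.0666 to 0.101 CPM, the unit of counts relative to library size used here after TMM scaling. All 9 neuroendocrine markers were expressed, the lowest being GRP at 24.2 CPM, whereas NEUROD1 was at most 0.731 CPM, POU2F3 at most 0.0222 CPM and YAP1 was at 0. The summed neuroendocrine markers were 3040 to 3300 CPM with DMSO, 2840 to 2890 CPM with CS2 and 2240 to 2440 CPM with FB23-2. The 5 fibroblast markers together gave 52.6 to 54.3, 32.9 to 39.6 and 10.5 to 15.3 CPM in the same order. COL1A2 alone, at 9.59 to 53.8 CPM, made up nearly all of this sum, LUM reached at most 0.175 CPM, and COL3A1 and DCN were at 0. The 5 leukocyte markers gave 3.49 to 4.13, 3.26 to 3.45 and 1.88 to 2.42 CPM, with CD3E at 0. The 3 endothelial markers gave 2.03 to 2.46, 0.201 to 0.732 and 0.0583 to 0.408 CPM, and the 5 airway markers gave at most 1.23 CPM. Mitochondrial transcripts made up 5.18% to 5.69% of counts with DMSO, 7.3% to 9.05% with CS2 and 6.83% to 10.97% with FB23-2, the highest being FB23-2 replicate 2. These values moved with the groups, and their part in the results that follow was not tested. In bulk RNA, fewer cells of a kind and less of a transcript per cell cannot be told apart.

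METTL3, METTL14, VIRMA and ZC3H13 passed the test in no comparison, the other 6 passed it in at least 1, and none of the 10 moved by as much as 1.5-fold. With CS2, 2 of the 10 genes were called, ALKBH5 higher and FTO lower, whereas 49.7% of the 19781 genes tested were called, 24.3% higher and 25.3% lower (edgeR quasi-likelihood test, Benjamini-Hochberg adjusted p under 0.05). With FB23-2, 3 of the 10 were called, RBM15 and CBLL1 higher and RBM15B lower, against 52% of all genes, 25.4% higher and 26.7% lower. Both comparisons use the same 3 DMSO libraries. Between the compounds, 3 of the 10 were called, FTO higher and WTAP and ALKBH5 lower with FB23-2 than with CS2, against 59.6% of all genes, 29.7% higher and 30% lower. The 6072 protein-coding genes whose mean level lay in the members' own range, 24.2 to 153 CPM, were called in 57.5%, 60.7% and 68.1% of cases in these comparisons. The median size of the log2 fold change, taken without sign, was 0.14, 0.08 and 0.13 for the members, and 0.28, 0.29 and 0.36 for those protein-coding genes. The share of members called was thus below that of genes of like level in each comparison, as a description without a test.

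**Figure D1:**
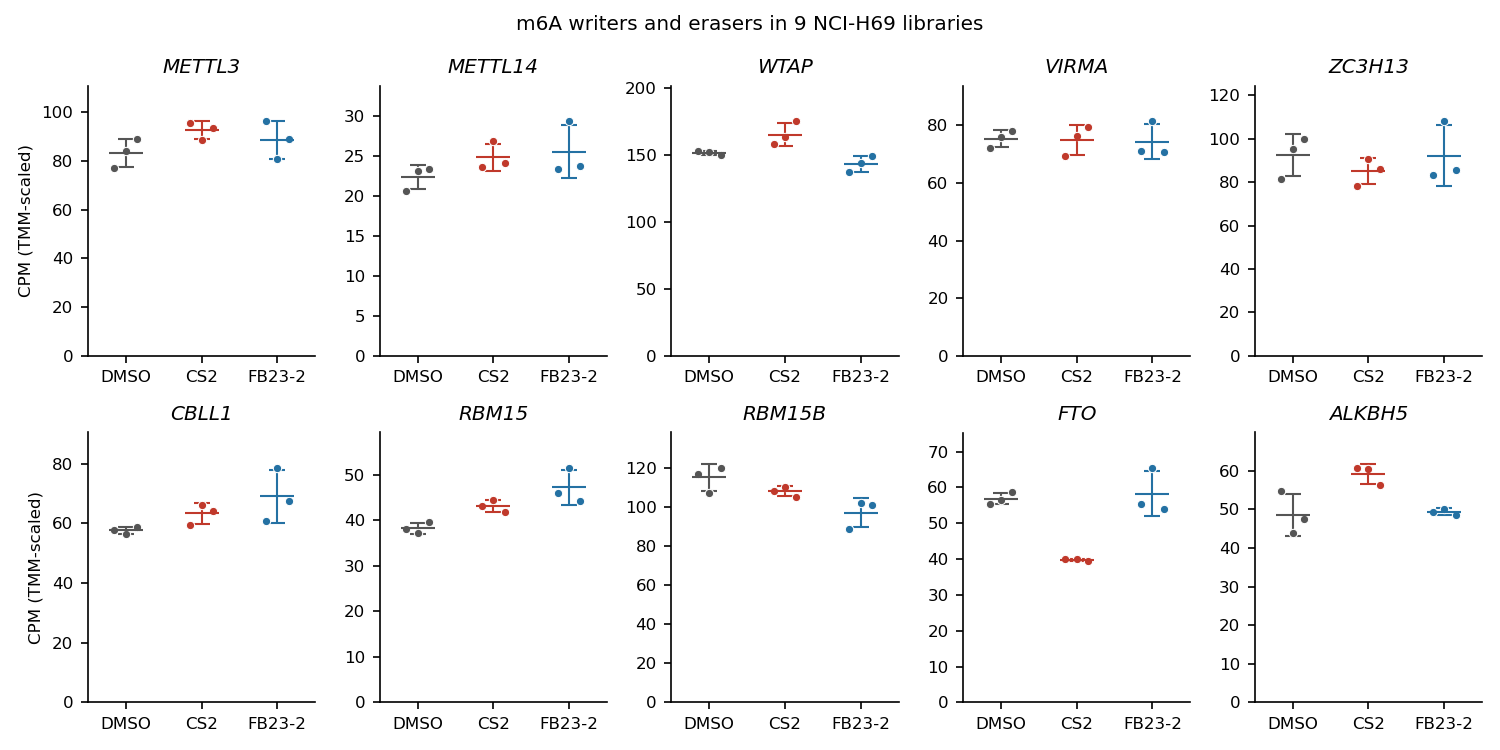
Scaled CPM (y axis, from 0) of each of the 10 genes in the 3 libraries (points) of each treatment (x axis), with the mean (horizontal line) and SD (bars). FTO lies near 40 CPM in every CS2 library and above 54 CPM in every other library, and VIRMA and ZC3H13 overlap across all groups.

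**Figure D2:**
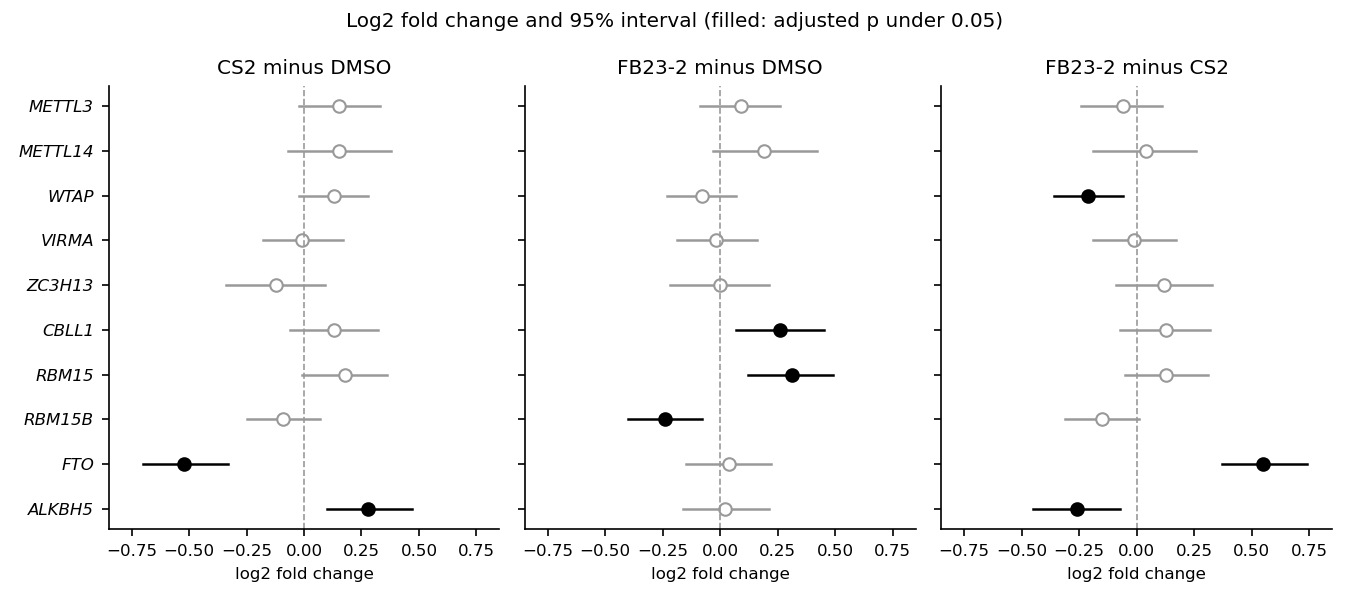
Log2 fold change (x axis) of each gene (y axis) with its 95% interval in the 3 comparisons, filled where the edgeR adjusted p is under 0.05. In each panel at least 7 of the 10 genes are open points, and FTO shows the widest displacement, to -0.52 with CS2 and to 0.55 between the compounds; with correction for gene span and GC content these become 0.35 and -0.08.

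FTO, the demethylase that both compounds are meant to inhibit, had lower transcript levels with CS2 and not with FB23-2. FTO (ENSG00000140718) lies on the plus strand of chromosome 16 (chr16:53701692-54158512, GRCh38), spans 456.821 kb and is the longest of the 10 genes. It was at 55.5, 56.6 and 58.7 CPM in the DMSO libraries, 39.9, 40.0 and 39.4 CPM with CS2, and 55.3, 65.5 and 54.1 CPM with FB23-2. The CS2 libraries lay within 1 CPM of each other and below every other library, while the FB23-2 libraries surrounded those with DMSO. The mean fell from 56.9 ± 1.6 to 39.8 ± 0.31 CPM (SD, n = 3), a change of -30.1%. The log2 fold change of FTO was -0.52 ± 0.09 (SE, edgeR adjusted p = 6.74e-05), but it was 0.35 (adjusted p = 4.87e-04) when the fit was corrected for gene span and exon GC content. Without that correction it stayed between -0.53 and -0.49 in 18 alternatives, each of which called it. With FB23-2 the log2 fold change of FTO was 0.04 ± 0.09, with a 95% interval of -0.15 to 0.22 (edgeR adjusted p = 0.754), and 0.27 (adjusted p = 0.00333) with the correction. The direct contrast put FTO 0.55 ± 0.09 higher on the log2 scale with FB23-2 than with CS2 (edgeR adjusted p = 2.14e-05), a 1.47-fold difference, and -0.08 (adjusted p = 0.369) with the correction.

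Uncorrected, the fall of FTO with CS2 was close to the middle of what protein-coding genes of its span showed. Of 962 such genes spanning 200 to 500 kb, 624 were lower and 49 higher with CS2, their median log2 fold change was -0.57, and FTO lay above 52.5% of them. With FB23-2 the same class held 265 higher and 322 lower genes with a median of -0.05, and FTO lay above 56.2% of them. With the span and GC correction the median of this class was 0.01 with CS2, and FTO, at 0.35, lay above 74.1% of it. FTO lies toward the upper end of the class, and protein-coding genes of over 500 kb had an uncorrected median of -1.36 with CS2. The class of 10 to 50 kb, which holds METTL3, METTL14, WTAP, CBLL1 and ALKBH5, had a median of 0.14 with CS2, and 4 of these members lay between the percentiles 49 and 51.6 of the class, whereas ALKBH5 lay above 63.7% of it. In the class of 50 to 200 kb, with a median of -0.08 with CS2, VIRMA lay above 57% and ZC3H13 above 46.7% of genes. The class of at most 10 kb had a median of 0.14 with CS2, and RBM15 lay above 53.3% and RBM15B above 33.6% of it. With FB23-2 this class held 526 higher and 994 lower genes with a median of -0.16. There RBM15 lay above 77.2% and RBM15B above 45.4% of it.

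**Figure D3:**
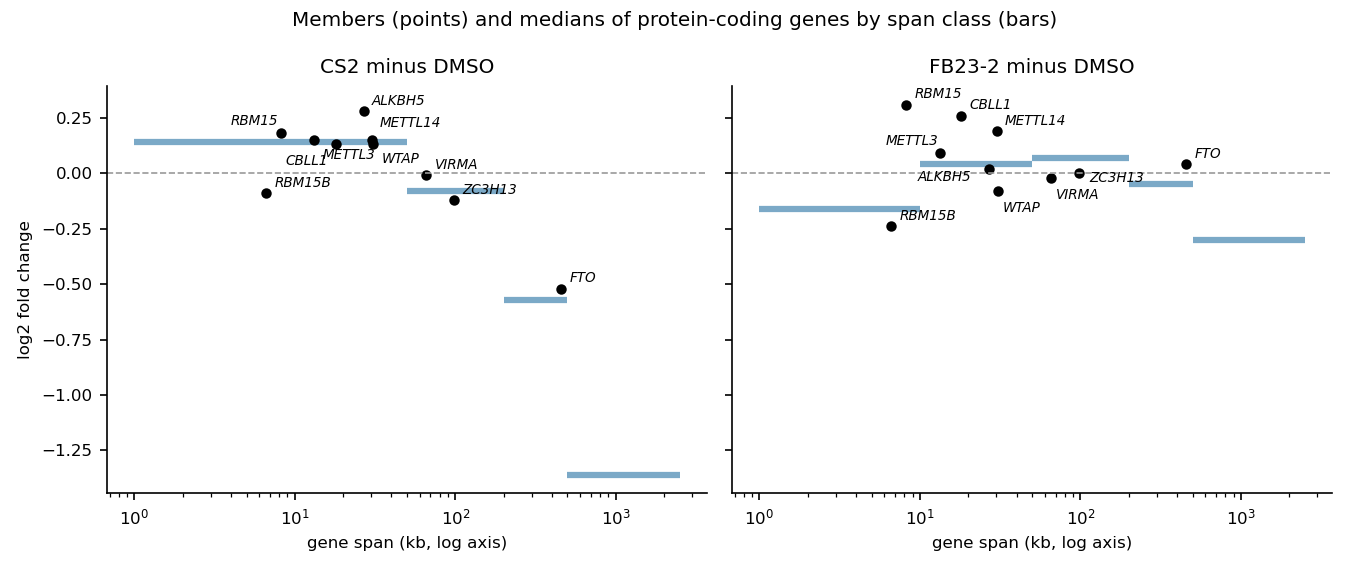
Log2 fold change (y axis) against gene span (x axis, log scale) for the 10 genes (points) with CS2 (left) and FB23-2 (right), and the median of protein-coding genes in each span class (bars; the outer ends of the first and last bar are arbitrary). With CS2 the medians run from 0.14 in genes of up to 50 kb to -1.36 in genes of over 500 kb. At 200 to 500 kb the median is -0.57 and FTO sits at -0.52 (0.35 after correction for span and GC content).

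RPGRIP1L, which encodes a protein of the ciliary transition zone, has its RefSeq start 297 bases from that of FTO, on the opposite strand, and was higher with both compounds. It was looked up, with the other oppositely oriented genes with RefSeq starts within 1000 bases of a member's, after the members' values had been seen. RPGRIP1L was at 12.2, 15.6 and 13.6 CPM with DMSO, 19.7, 19.4 and 20.1 CPM with CS2, and 17.7, 17.7 and 17.8 CPM with FB23-2. Every library of either compound lay above every DMSO library. Its log2 fold change was 0.52 ± 0.11 with CS2 (edgeR adjusted p = 5.32e-04) and 0.36 ± 0.11 with FB23-2 (edgeR adjusted p = 0.00809). The FB23-2 value no longer passed if DMSO replicate 1 (0.28) was left out, or with the span and GC correction (0.20). The sequence before FTO is shown because it lies between the RefSeq starts of these genes. GENCODE 29, from which the gene coordinates come, places the start of FTO farther upstream and that of RPGRIP1L inside the window. The last 250 bases before the RefSeq start of FTO (GRCh38.p14, chr16:53703906-53704155, plus strand) read as follows, with no capitals since none of the 5 motifs searched was found.
FTO: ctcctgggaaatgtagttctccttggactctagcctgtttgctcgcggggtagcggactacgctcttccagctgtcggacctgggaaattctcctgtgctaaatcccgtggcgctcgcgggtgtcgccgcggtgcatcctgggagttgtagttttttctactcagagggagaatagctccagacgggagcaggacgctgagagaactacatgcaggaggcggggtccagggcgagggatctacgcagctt
The stretch is 58.4% GC with 17 CpG dinucleotides, beside medians of 58% and 11 over 35116 RefSeq windows of the same length. The motifs, sought on both strands, were the GC box GGGCGG (in 42.6% of all windows), CCAAT (32%), the ETS core CCGGAA (14.5%), the E-box CACGTG (6.34%) and TGATGNAA, the core of the amino acid response element (3.14%). RefSeq windows matched 9 of the 10 members in 10 entries, WTAP having 2.

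ALKBH5, the other m6A demethylase, was higher with CS2, opposite to the uncorrected fall of FTO. ALKBH5 (ENSG00000091542, chr17:18183078-18209954, plus strand) was at 54.7, 43.8 and 47.4 CPM with DMSO, 60.8, 60.5 and 56.3 CPM with CS2, and 49.3, 50.2 and 48.6 CPM with FB23-2. The CS2 libraries lay above all others, and the lowest of them was close to the highest DMSO library. The mean rose from 48.6 ± 5.5 to 59.2 ± 2.5 CPM (SD, n = 3), a log2 fold change of 0.28 ± 0.09 (edgeR adjusted p = 0.0129). The rise no longer passed if DMSO replicate 2 (0.21) or DMSO replicate 3 (0.26) was left out, or with the span and GC correction (0.16, adjusted p = 0.105). With FB23-2 the log2 fold change was 0.02 ± 0.09, with a 95% interval of -0.16 to 0.21 (edgeR adjusted p = 0.847). With FB23-2 ALKBH5 was lower than with CS2, by a log2 fold change of -0.26 ± 0.09 (edgeR adjusted p = 0.017). This no longer passed if CS2 replicate 2 (-0.25) or FB23-2 replicate 3 (-0.24) was left out, or with the correction (-0.08). Of its exon bases, 11.19% are shared with AC087164.1, so part of the count may belong to that gene.

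The ratio of the demethylase transcripts within a library separated CS2 from both other groups. It does not depend on how libraries are scaled, but it is not corrected for span or GC content. With that correction the log2 fold changes with CS2 were 0.35 for FTO and 0.16 for ALKBH5, in the same direction. The log2 ratio of FTO to ALKBH5 counts was 0.02, 0.37 and 0.31 with DMSO, -0.61, -0.60 and -0.51 with CS2, and 0.17, 0.38 and 0.16 with FB23-2. The ratio was above 0 in all 6 libraries without CS2 and below 0 in all 3 with it, and, as a ratio of counts, it does not rank the genes' levels per length. The difference between CS2 and DMSO was -0.81 in log2 units (exact two-sided permutation test, p = 0.1, adjusted p = 0.3 over 12 tests), and 0.1 is the smallest p that 3 libraries against 3 can give. FB23-2 and DMSO differed by 0.0 (exact permutation p = 1). The ratio of FTO to METTL3, an eraser to the catalytic writer, was -0.55 ± 0.06 with DMSO, -1.22 ± 0.06 with CS2 and -0.61 ± 0.27 with FB23-2 (SD of log2 ratios, n = 3). Its CS2 libraries did not overlap the others, with a difference from DMSO of -0.67 (exact permutation p = 0.1, adjusted p = 0.3).

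**Figure D4:**
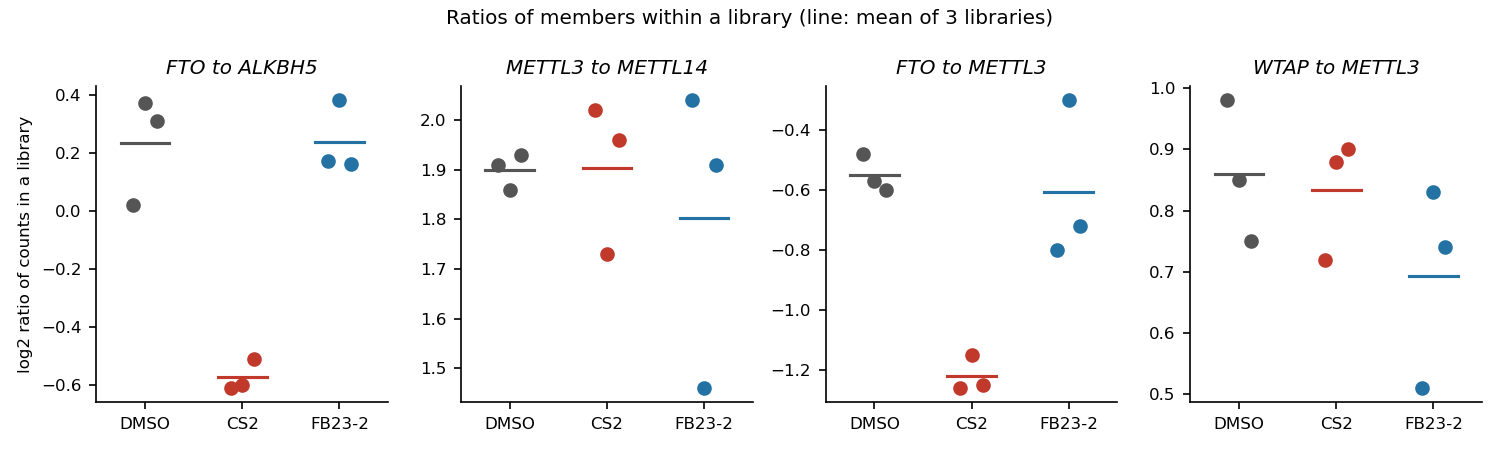
Log2 ratio of counts (y axis, a separate range in each panel that does not start at 0) for 4 pairs of members in each library (points) by treatment (x axis), with the mean of 3 libraries (lines). The CS2 libraries stand below all others for FTO to ALKBH5 and FTO to METTL3, and the groups overlap for METTL3 to METTL14.

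The catalytic pair passed the test in no comparison. METTL3 (ENSG00000165819, chr14:21498133-21511375, minus strand) was at 77.2, 83.9 and 88.9 CPM with DMSO, 95.6, 88.6 and 93.6 CPM with CS2, and 96.3, 80.7 and 89.2 CPM with FB23-2. The groups overlapped. Its log2 fold change was 0.15 with CS2 (95% interval -0.02 to 0.33, edgeR adjusted p = 0.141) and 0.09 with FB23-2 (-0.09 to 0.26, edgeR adjusted p = 0.386). METTL14 (ENSG00000145388, chr4:118685368-118715433, plus strand), the partner that METTL3 needs for activity, was at 20.6, 23.1 and 23.3 CPM with DMSO, 23.6, 26.8 and 24.1 CPM with CS2, and 23.3, 29.3 and 23.7 CPM with FB23-2. The groups lay close together, but all treated libraries were above all DMSO libraries, FB23-2 replicate 1 only barely. FB23-2 replicate 2 was the highest library. Its log2 fold change was 0.15 with CS2 (-0.07 to 0.38, edgeR adjusted p = 0.25) and 0.19 with FB23-2 (-0.03 to 0.42, edgeR adjusted p = 0.143), and the latter was -0.04 with the span and GC correction. The log2 ratio of METTL3 to METTL14 was 1.9 ± 0.04 with DMSO, 1.9 ± 0.15 with CS2 and 1.81 ± 0.31 with FB23-2 (SD, n = 3). CS2 differed from DMSO in this ratio by 0.0 (exact permutation p = 1) and FB23-2 by -0.1 (exact permutation p = 0.9). The low value of the FB23-2 group came from replicate 2, at 1.46.

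The 2 RNA-binding adaptors recognise uridine-rich RNA and bring the writer complex to nearby adenosines. With FB23-2 they were called in opposite directions without the span and GC correction, and only RBM15 was called with it. RBM15 (ENSG00000162775, chr1:110338506-110346681, plus strand) was at 38.0, 37.1 and 39.5 CPM with DMSO, 43.2, 44.4 and 41.7 CPM with CS2, and 46.0, 51.5 and 44.1 CPM with FB23-2. All libraries of both compounds lay above all DMSO libraries. RBM15 rose from 38.2 ± 1.2 to 47.2 ± 3.8 CPM with FB23-2 (SD, n = 3), a log2 fold change of 0.31 ± 0.09 (edgeR adjusted p = 0.00599). It was called under every alternative tried, with values of 0.24 to 0.44. With CS2 its log2 fold change was 0.18 ± 0.09 (edgeR adjusted p = 0.103), which passed the test without FB23-2 replicate 2 (adjusted p = 0.0479). That library is in neither group compared and enters through the shared filter, scaling, estimate of spread and adjustment. FB23-2 and CS2 differed by 0.13 in log2 units for RBM15 (95% interval -0.05 to 0.31, edgeR adjusted p = 0.204), and by 0.33 (adjusted p = 0.00327) with the span and GC correction.

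RBM15B (ENSG00000259956, chr3:51391268-51397908, plus strand) was at 117, 107 and 120 CPM with DMSO, 108, 110 and 105 CPM with CS2, and 88.5, 102 and 101 CPM with FB23-2. The FB23-2 libraries lay below all others, with replicate 1 the lowest. RBM15B fell from 115 ± 6.7 to 97.0 ± 7.4 CPM (SD, n = 3), a log2 fold change of -0.24 ± 0.08 (edgeR adjusted p = 0.0152). The fall no longer passed if DMSO replicate 1 (-0.23), DMSO replicate 3 (-0.21) or FB23-2 replicate 1 (-0.17) was left out, or with the span and GC correction (-0.07, adjusted p = 0.463). With CS2 the log2 fold change of RBM15B was -0.09 (95% interval -0.25 to 0.07, edgeR adjusted p = 0.359). Of its exon bases 19.95% overlap DCAF1, the largest shared part among the 10 genes.

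The promoter windows of the adaptors are shown because the genes were called in opposite directions with FB23-2 without the span and GC correction. Whether the windows bear on these changes was not tested. In the windows before the RefSeq starts of RBM15 (GRCh38.p14, chr1:110339127-110339376, plus strand) and RBM15B (chr3:51391035-51391284, plus strand), capitals mark GC boxes on either strand, CCAAT boxes and the E-box.
RBM15: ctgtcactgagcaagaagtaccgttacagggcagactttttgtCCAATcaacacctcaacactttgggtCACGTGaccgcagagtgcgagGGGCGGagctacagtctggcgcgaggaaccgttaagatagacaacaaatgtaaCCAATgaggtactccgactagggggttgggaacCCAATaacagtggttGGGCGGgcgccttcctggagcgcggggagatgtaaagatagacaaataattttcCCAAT
RBM15B: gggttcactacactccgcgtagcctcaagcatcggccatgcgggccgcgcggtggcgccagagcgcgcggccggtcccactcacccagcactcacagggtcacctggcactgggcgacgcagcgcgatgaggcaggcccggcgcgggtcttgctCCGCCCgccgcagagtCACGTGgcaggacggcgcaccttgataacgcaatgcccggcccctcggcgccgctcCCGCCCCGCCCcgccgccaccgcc
Both hold an E-box. RBM15 has 4 CCAAT boxes and 2 GC boxes in a window of 51.6% GC, whereas RBM15B has 3 GC boxes, of which a pair overlaps, no CCAAT box and 74.8% GC. These are matches of letters and say nothing of whether a factor binds.

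WTAP, which anchors the catalytic pair in nuclear speckles, passed the test between the compounds and not against DMSO, except that with the span and GC correction it was lower with FB23-2 than with DMSO (-0.19, edgeR adjusted p = 0.0166). WTAP (ENSG00000146457, chr6:159725585-159756319, plus strand) was at 153, 152 and 150 CPM with DMSO, 158, 163 and 175 CPM with CS2, and 137, 144 and 149 CPM with FB23-2. The 3 groups did not overlap, with CS2 above and FB23-2 below DMSO. Neither difference from DMSO passed the test, at 0.13 with CS2 (95% interval -0.02 to 0.28, edgeR adjusted p = 0.147) and -0.08 with FB23-2 (-0.23 to 0.07, edgeR adjusted p = 0.363). The difference between the compounds did, WTAP being lower with FB23-2 by a log2 fold change of -0.21 ± 0.07 (edgeR adjusted p = 0.0172). It no longer passed if CS2 replicate 3 (-0.16) or FB23-2 replicate 1 (-0.17) was left out. SOD2, the mitochondrial superoxide dismutase, starts 122 bases away on the opposite strand and overlaps 6.81% of WTAP's exon bases. The SOD2 counts are for an Ensembl ID without GENCODE 29 coordinates, whereas the overlap is with GENCODE 29 entries named SOD2. SOD2 averaged 152 ± 7.9 CPM with DMSO, 210 ± 17 CPM with CS2 and 150 ± 7.7 CPM with FB23-2 (SD, n = 3), and rose with CS2 by 0.46 ± 0.08 in log2 units (edgeR adjusted p = 5.62e-05). Counts of the overlapping bases cannot be assigned to either gene without the strand setting, and the part of SOD2 in the WTAP values was not tested.

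CBLL1 (ENSG00000105879, chr7:107743697-107761667, plus strand), a RING-finger protein also called HAKAI that belongs to the regulatory part of the complex, was higher with FB23-2. It was at 57.8, 56.4 and 58.9 CPM with DMSO, 59.4, 66.2 and 64.2 CPM with CS2, and 60.9, 78.6 and 67.5 CPM with FB23-2. All treated libraries lay above the DMSO libraries, and FB23-2 replicate 2 was the highest. CBLL1 rose from 57.7 ± 1.2 to 69 ± 8.9 CPM with FB23-2 (SD, n = 3), a log2 fold change of 0.26 ± 0.09 (edgeR adjusted p = 0.0237). The rise no longer passed if FB23-2 replicate 2 (0.16) or any of DMSO replicates 1 (0.26), 2 (0.24) and 3 (0.27) was left out, or with the span and GC correction (0.10). With CS2 its log2 fold change was 0.13 (95% interval -0.06 to 0.32, edgeR adjusted p = 0.246).

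VIRMA and ZC3H13, large scaffold subunits that hold the regulatory part together, passed the test in no comparison without the span and GC correction. VIRMA (ENSG00000164944, chromosome 8) was at 72.1, 75.8 and 78.0 CPM with DMSO, 69.4, 76.1 and 79.3 CPM with CS2, and 71.0, 81.4 and 70.6 CPM with FB23-2. Its groups overlapped almost fully, and its log2 fold change was -0.01 with CS2 (95% interval -0.18 to 0.17, edgeR adjusted p = 0.955) and -0.02 with FB23-2 (-0.19 to 0.16, edgeR adjusted p = 0.871). With the span and GC correction VIRMA was lower with FB23-2 than with DMSO, at -0.19 (edgeR adjusted p = 0.0237). Under this correction it was also lower with FB23-2 than with CS2, at -0.22 (edgeR adjusted p = 0.0088). ZC3H13 (ENSG00000123200, chr13:45954465-46052759, minus strand) was at 81.5, 95.4 and 100 CPM with DMSO, 78.4, 90.4 and 85.8 CPM with CS2, and 83.1, 108 and 85.4 CPM with FB23-2. Its groups also overlapped, with log2 fold changes of -0.12 with CS2 (-0.34 to 0.09, edgeR adjusted p = 0.333) and 0.0 with FB23-2 (-0.22 to 0.21, edgeR adjusted p = 0.983). CPB2-AS1, a long non-coding RNA that starts 102 bases from ZC3H13 on the other strand, rose with CS2 from a mean of 1.87 to 6.44 CPM, by 1.78 ± 0.19 in log2 units (edgeR adjusted p = 1.66e-07). Among the other oppositely oriented neighbours, RBM15-AS1 averaged 0.522 CPM with DMSO, 0.053 CPM with CS2 and 0.232 CPM with FB23-2. It was called lower with CS2 (edgeR adjusted p = 5.44e-04), where it was near the limit that 3 counts set, and called higher with FB23-2 than with CS2 (edgeR adjusted p = 0.0208). The latter no longer passed by DESeq2 or if CS2 replicate 2 or FB23-2 replicate 2 was left out. CBLL1-AS1, at 1.35 CPM with DMSO, did not pass the test, and METTL14-DT was not tested.

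Levels of different genes were set side by side only per length, as RPKM, the scaled CPM of a gene divided by the length in kb of the union of its exons. The lengths come from GENCODE 29, which holds 58261 of the 62754 counted IDs, so they may differ from the exons counted. With DMSO the order ran from WTAP at 23.6 ± 0.23 RPKM through RBM15B (17.2 ± 1.0), ALKBH5 (15.2 ± 1.7), METTL3 (14.1 ± 0.99), CBLL1 (10.5 ± 0.23), ZC3H13 (9.0 ± 0.95), RBM15 (8.18 ± 0.26) and VIRMA (6.99 ± 0.28) to METTL14 (3.25 ± 0.22) and FTO (2.66 ± 0.076; SD, n = 3). Libraries of the neighbours RBM15B and ALKBH5, ALKBH5 and METTL3, and ZC3H13 and RBM15 overlapped, and all other neighbours in this order were separate. METTL14 thus stood well below its partner METTL3 on this scale. The choice of length matters most for FTO and METTL3. Over its principal transcript of 11766 bases in place of 21379 bases of all its exons, FTO was at 4.84 RPKM and above METTL14 (3.35), and METTL3, with a principal transcript of 2015 bases, was level with WTAP.

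**Figure D5:**
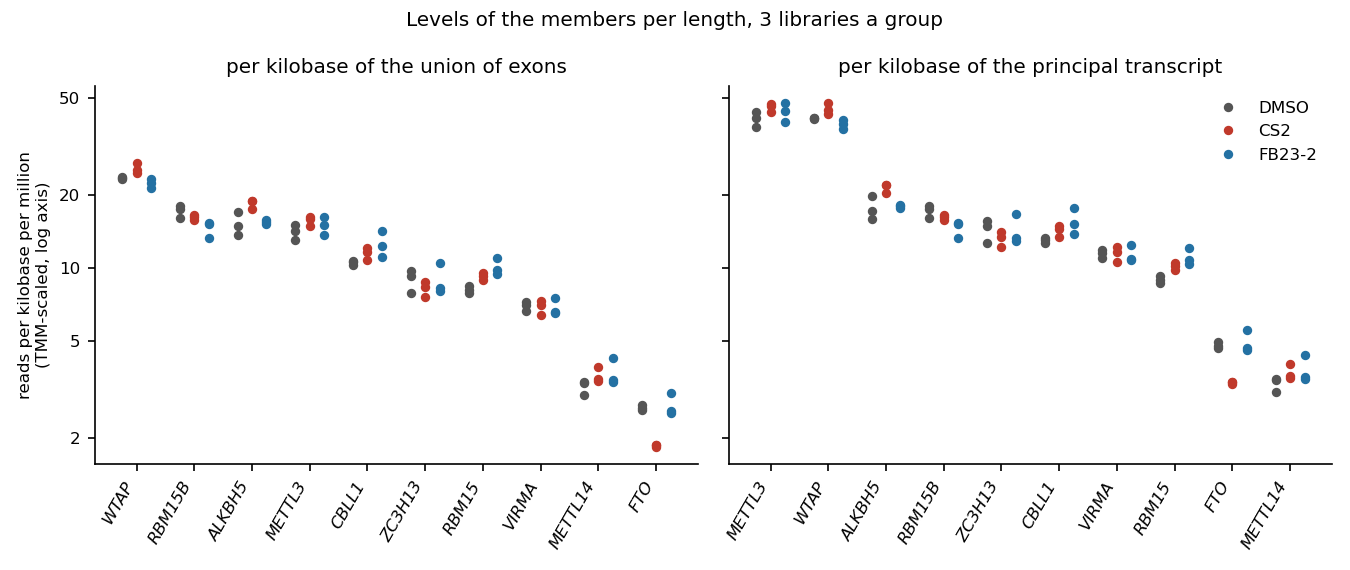
RPKM (y axis, log scale) of the 10 genes (x axis, in descending order of the DMSO mean) in each library (points, colored by treatment), per kilobase of all exons (left) and of the principal transcript (right). FTO and METTL14 are the lowest genes on either scale, with FTO at 2.66 and 4.84 with DMSO.

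The pairs of members varied together to very different degrees over the 9 libraries. The 45 correlations of log2 CPM ran from -0.8 to 0.86 with a median of 0.15, and the points share libraries and treatment groups, so that these values are descriptions without a test. The highest were METTL14 with CBLL1 (r = 0.86), CBLL1 with RBM15 (also 0.86), VIRMA with ZC3H13 (0.82) and METTL14 with RBM15 (0.79). FB23-2 replicate 2 was the highest library for every gene of these pairs, and its part in these correlations was not tested. The lowest were WTAP with FTO (-0.8) and FTO with ALKBH5 (-0.8). Among 9792 genes of at least 10 CPM, those closest to FTO were ZNF609 (r = 0.996), BICRAL (0.995) and SPOCK1 (0.995), which span 225.327, 121.603 and 623.082 kb. Those closest to ALKBH5 were VAT1 (0.972), MBOAT7 (0.963) and ZNF467 (0.957), which span 10.519, 16.471 and 9.298 kb. METTL3 was closest to DGKQ (0.948), ACAP3 (0.946) and RHOT2 (0.941), and METTL14 to CKAP2L (0.991), RAI14 (0.979) and ITGB1 (0.976).

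The methyl donor and its by-product are handled by the methionine and S-adenosylmethionine cycle. Of its 9 genes tested (MAT1A, at most 0.466 CPM, was not), 2 were higher and 4 lower with CS2 (median log2 fold change -0.21), and 5 higher and 1 lower with FB23-2 (median 0.25). That is 6 of 9 with either compound, where 49.7% of all genes were called with CS2 and 52% with FB23-2. Without DMSO replicate 3, 1 gene was higher with CS2. ADK, the kinase that removes the adenosine formed from S-adenosylhomocysteine, was at 72.4, 78.7 and 73.3 CPM with DMSO and at 22.2, 25.5 and 30.5 CPM with CS2, well apart. It fell by 1.52 ± 0.11 in log2 units with CS2 (edgeR adjusted p = 9.58e-10), or -0.54 with the span and GC correction, whereas with FB23-2 its value was -0.05 ± 0.10 (edgeR adjusted p = 0.723). AHCYL2, a relative of the hydrolase of S-adenosylhomocysteine, fell with CS2 (-0.73 ± 0.10, edgeR adjusted p = 3.58e-06; -0.31 with the correction) and rose with FB23-2 (0.61 ± 0.09, edgeR adjusted p = 2.06e-05). MTR, methionine synthase, rose with FB23-2 from 104 to 156 CPM, by 0.58 ± 0.07 (edgeR adjusted p = 1.95e-06).

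The demethylases use 2-oxoglutarate, and of 10 genes of its metabolism 4 were higher and none lower with CS2 (median 0.09), and 5 higher and 4 lower with FB23-2 (median 0.17). Over all genes the shares were 24.3% and 25.3% with CS2, and 25.4% and 26.7% with FB23-2. With the span and GC correction, 2 of the 10 were higher and 1 lower with CS2, and 2 were lower with FB23-2. IDH1, which makes 2-oxoglutarate in the cytosol, rose with FB23-2 from 52.9 ± 1.2 to 98.8 ± 7.6 CPM (SD, n = 3), a log2 fold change of 0.90 ± 0.08 (edgeR adjusted p = 2.79e-08). With CS2 the IDH1 value was 0.08 ± 0.08 (edgeR adjusted p = 0.452). IDH2, its mitochondrial counterpart, moved the other way with FB23-2, from 279 to 204 CPM (-0.45 ± 0.07, edgeR adjusted p = 1.58e-05).

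The exon junction complex, which keeps m6A from being placed near splice sites, had 3 of 5 genes higher and 1 lower with CS2 (median 0.26), and none higher and 3 lower with FB23-2 (median -0.38). Of all genes, 24.3% were higher and 25.3% lower with CS2, and 25.4% and 26.7% with FB23-2. RBM8A, a core subunit, moved in opposite directions with the compounds. It rose from 56.8 ± 2.7 to 115 ± 14 CPM with CS2 (1.01 ± 0.09, edgeR adjusted p = 2.55e-08) and fell to 38.4 ± 2.4 CPM with FB23-2 (-0.57 ± 0.09, edgeR adjusted p = 4.01e-05). MAGOHB, a partner of RBM8A, fell with CS2 (-1.19 ± 0.12, edgeR adjusted p = 6.03e-08) and with FB23-2 (-0.63 ± 0.11, edgeR adjusted p = 1.02e-04).

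Of 10 m6A reader genes tested, 1 was higher and 3 lower with CS2 (median -0.08), and 1 higher and 4 lower with FB23-2 (median -0.11), so that 4 and 5 of 10 were called where all genes gave 49.7% and 52%. With the span and GC correction, the 3 lower with CS2 became 5. Under the same correction, the 1 higher with FB23-2 became 2 and the 4 lower became 6. The 4 lower with FB23-2 became 2 without FB23-2 replicate 1. IGF2BP1 and IGF2BP2 reached at most 0.254 and 0.209 CPM and were not tested. YTHDC2, a helicase that binds m6A, fell with CS2 (-0.34 ± 0.09, edgeR adjusted p = 0.00369) and rose with FB23-2 (0.48 ± 0.09, edgeR adjusted p = 1.6e-04). IGF2BP3, a reader linked to transcript stability, fell with CS2 from 75.9 to 45.0 CPM (-0.75 ± 0.09, edgeR adjusted p = 1.63e-06; -0.43 with the correction). Of the 6 other RNA N6-adenosine methyltransferases and cofactors, PCIF1 was called higher with CS2 (0.27 ± 0.11, edgeR adjusted p = 0.0443). PCIF1 no longer passed if any 1 DMSO replicate (0.25 to 0.28) or CS2 replicate 1 (0.19) was left out, or with the correction (0.09), and 2 of the 6 were called higher with the replicate block or if FB23-2 replicate 2 was left out. With FB23-2 METTL4 was higher (0.41 ± 0.08, edgeR adjusted p = 1.81e-04; 0.23 with the correction) and TRMT112 lower (-0.38 ± 0.10, edgeR adjusted p = 0.00468; -0.22 with the correction). These 2 were joined by 1 more higher gene if FB23-2 replicate 1 was left out. Of 10 genes of the CCR4-NOT deadenylase, which YTHDF proteins recruit to marked transcripts, 3 were lower and none higher with CS2 (median -0.06), and 1 was higher and 3 lower with FB23-2 (median -0.01). These 3 and 4 of 10 lie below the shares over all genes, 49.7% and 52%, and 2 were higher with FB23-2 without FB23-2 replicate 1. With the correction, 1 was higher and 4 lower with FB23-2. CNOT2 fell with CS2 (-0.67 ± 0.11, edgeR adjusted p = 4.74e-05).

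The members' own transcripts differ in how often they hold GGACT, a form of the sequence that METTL3 prefers. METTL3 has 4 such sites in its principal transcript, or 1.99 per kb, more than 90.5% of 14028 genes, whose median is 0.94 per kb. VIRMA (1.53 per kb), ALKBH5 (1.46) and METTL14 (1.2) also lie above the median, and FTO, with 5 sites in a far longer transcript, is at 0.42 per kb, above 15.9% of genes. A match is not a methylated site, and methylation was not measured in these libraries.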

How the data were processed

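Per the labels' protocols, total RNA was isolated with TRIzol and messenger RNA libraries were made with a Hieff NGS Ultima Dual-mode kit. The authors deposited raw read counts per Ensembl gene, not normalized. Per the submitters' processing notes, the build was hg38. Which aligner, counter and annotation were used, and with what strand setting, is not given in the sources used here. Counts of overlapping or antisense genes may therefore be mixed. Columns were matched to samples by name, and FB23 was taken as FB23-2. The design text calls the replicates biological without saying that they were separate cultures, so p-values measure the spread between these libraries.

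Genes were kept with filterByExpr (minimum count 10, minimum total 15), which left 19781, and TMM factors were applied. A shared edgeR 4.0.16 quasi-likelihood fit (R 4.3.3) held the 9 libraries without covariates and was tested on simulated data. In that simulation few genes changed and none by span or GC content, so it does not bear on results that depend on them. A gene was called where its p, adjusted by Benjamini-Hochberg across the whole table, was under 0.05. Limma 3.58.1 (voom) and DESeq2 1.42.0 were alternatives, as was a correction in which each library's trend of log2 CPM with gene span and exon GC content, fitted by natural splines, entered as an offset. It removes any difference between groups that follows span or GC content. The SE of a log2 fold change is its size over the root of its F statistic. Spans, exon lengths and overlaps came from GENCODE release 29 and promoter windows from RefSeq (GRCh38.p14), in Python 3.11.15. Ratios of members were compared by exact permutation. Of the 62754 IDs, 42343 had a symbol. The 95% intervals come from the edgeR fit and include the spread between libraries, whereas the limit set by 3 counts covers counting error only.

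The 10 members are always named, as are up to 4 called genes of each related list, by the larger of their changes with either compound, not all of which are reported here. The members, the lists and the markers were chosen with earlier results of these data known. No pair of libraries of a group agreed within sampling noise (lowest chi-square per degree of freedom 4.16).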

Additional observations from a re-analysis of the deposited data

How the results depend on the processing

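Of 600 log2 fold changes of the members under alternatives, 536 kept their direction and side of the threshold, 21 lost the call, 13 gained one and 30 changed sign, the last all under the span and GC correction or when 1 library was left out. The cause was not tested. With the span and GC correction, alone and together with the replicate block, FTO was 0.35 with CS2 and -0.08 between the compounds, ZC3H13 was 0.01 (0.02 with the block) with CS2 and -0.10 between the compounds, VIRMA was 0.03 with CS2, METTL14 was -0.04 with FB23-2 and -0.15 between the compounds, and METTL3 and RBM15B were 0.03 and 0.08 between the compounds. Both of these edgeR fits called 0 members lower with CS2 (0 at an unadjusted p under 0.05, 1 with the block) and 2 lower with FB23-2, whereas uncorrected DESeq2 and limma-voom called 1 lower with CS2. With only the 2 groups compared, 2 members were called higher with CS2.

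Without 1 library at a time, the members called higher with CS2 numbered 0 to 2, those higher and lower with FB23-2 1 to 2 and 0 to 1, and those lower between the compounds 1 to 3 (edgeR). Where a count was 0, the count at an unadjusted p under 0.05 was 1, or 0 for those lower with FB23-2 without FB23-2 replicate 1. Sign changes near 0 arose for VIRMA (-0.04 to 0.05 with CS2, -0.09 to 0.03 with FB23-2, -0.08 to 0.04 between the compounds), for FTO (-0.05 to 0.10) and ALKBH5 (-0.05 to 0.11) with FB23-2, and for METTL14 (-0.08 to 0.11) and ZC3H13 (-0.01 to 0.20) between the compounds. Ratios within a library ranged likewise from -0.10 to 0.07 for FTO to ALKBH5 and from -0.21 to 0.04 for FTO to METTL3 with FB23-2. METTL3 to METTL14 ranged from -0.06 to 0.09 with CS2, -0.21 to 0.08 with FB23-2 and -0.22 to 0.08 between the compounds, and WTAP to METTL3 from -0.08 to 0.03 with CS2. FTO ranked 9 in place of 10 per length with the longest or the principal transcript, the latter chosen after the data were seen.

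Replicate numbers are shared across groups, but the labels do not say what they mark: same-numbered libraries correlated by -0.03 to 0.167, over 0.1 in 2 of 9 pairs, and 7 of 9 libraries correlated best with their own number. The replicate block called 10271, 10698 and 12136 genes in the CS2, FB23-2 and direct comparisons, changed no member's call, and over all alternatives the counts were 8345 to 11024, 8795 to 10698 and 9989 to 12227. Depth limits RBM15-AS1 and other transcripts near 1 CPM.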
